A study of Dichomitus squalens with 6 samples.

Results

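The genes described here are 195 of the 15295 gene models of the white-rot fungus Dichomitus squalens, and each of them sat directly beside another gene whose read count was also an estimate. They were chosen by their expected counts, the authors' estimate of how many reads each gene received: a member's count was more than 0.001 away from a whole number in all 6 libraries, and so was that of the model directly before or after it on its scaffold. Scaffolds 52, 68 and 77 were left out. A fractional count in every library was found for 679 models, of which 484 had no such neighbour. RNA came from mycelium of the wild-type strain CBS 464.89 kept for 5 days at 28 °C on plates of a low-nitrogen asparagine-succinate medium with 1.5% agar and 25 mM of a single sugar. The sugar was L-rhamnose in 2 libraries, xylose in 2 and cellobiose in 2, and nothing else differed between the groups by their labels. The labels do not say whether the 2 libraries of a sugar came from separate cultures, so p-values measure the spread between these libraries, which may be technical.

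In plants, L-rhamnose occurs in pectin, xylose is the backbone sugar of xylan, and cellobiose is the disaccharide released from cellulose, so the comparison addresses which genes this wood-decaying fungus transcribes on sugars of different plant polymers. Genes that arise by duplication often stay side by side, and while their sequences remain alike a short read can fit more than one copy. A read estimator then gives each copy a fraction of such a read, which leaves fractional counts, while the summed count of all copies that compete for a set of reads stays whole. The files pair gene identifiers with no names or products, so no function is given here for any gene, and the mycelium label could not be set against marker genes.

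The members formed 86 groups of adjacent genes, 68 of 2 members, 14 of 3, 3 of 4 and 1 of 5, on 58 of 406 scaffolds. They held between 0.668% and 1.12% of the counts of a library, with library totals of 7306517 to 8126006. Per length, their median level over genes was 15.3 FPKM (fragments per kilobase of coding sequence, scaled to library depth), against 19.8 FPKM over all genes with a count, and single members averaged 0.96 to 1820 FPKM over the 6 libraries. In position, 26.15% of members lay within 10 kb of a scaffold end, against 14.46% of all models. Members also lay on shorter scaffolds, with a median length of 176 kb against 224.3 kb for all models, and the shares were not adjusted for this. The median coding length was 1059 bases for members and 933 for all models. At the edge of the rule, 29 members were only 0.01 from a whole number in at least 1 library, and 39 models just outside it, which were not whole in 5 libraries, lay beside a model that was not whole in all 6.

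Only a few of these neighbours had counts that showed reads divided with each other alone. A pair sum that is not whole can also arise when neighbours divide reads with each other and with further genes. Among the 109 adjacent member pairs, 9 had counts that summed to a whole number, within 0.02, in all 6 libraries. Each of the other 100 pair sums missed a whole number by at least 0.23 in some library. In 4 more pairs the neighbours summed to a whole number once 1 gene elsewhere was added, which leaves 96 pairs where a closed set of reads shared by the neighbours was not found. The 9 pairs with whole sums were alike in ways that the rule had not used. All 9 lay on the same strand, all 9 had coding lengths within 1.1 times of each other (the greatest ratio was 1.09), and 7 had the same number of exons. Of the other 100 pairs, 61 shared a strand, 20 had lengths within 1.1 times and 16 had the same number of exons. Over the adjacent pairs of the genome that are not member pairs, 49.24% shared a strand, 8.65% had such lengths and 12.37% had the same number of exons.

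**Figure D1:**
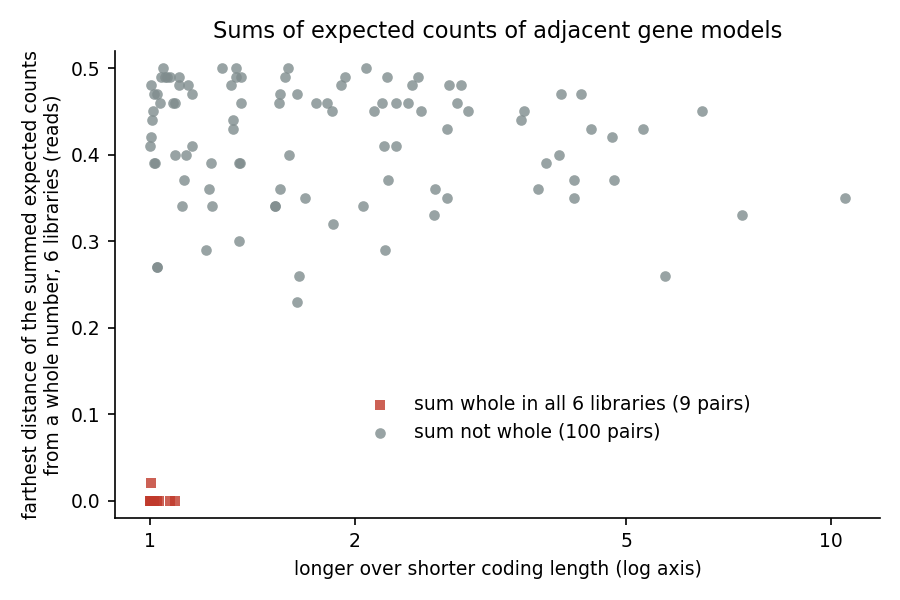
Each point is 1 of the 109 adjacent member pairs: the horizontal axis gives the ratio of the coding lengths on a log axis, and the vertical axis the farthest distance of the summed expected counts from a whole number over the 6 libraries, in reads. The 9 pairs with whole sums (squares) sit at or below 0.02 reads and below a length ratio of 1.1, and the other 100 pairs (circles) sit at 0.23 or above at ratios up to 10.5.

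For most members with a resolved sum, the gene that shared the reads was elsewhere. Counts of 83 members summed to a whole number with exactly 1 gene that was not their neighbour: 39 of these genes were on the same scaffold and 44 on another. A further 26 members had a whole sum of 3 genes, and for 68 members no such sum was found. The 3-gene sums are weaker: some had informative fractions in only 3 libraries, and coding lengths within 1 sum differed by up to 6.94 times. How many such sums would arise among unrelated genes was not tested. Of the 62 pairs of a member with 1 gene elsewhere, 33 had informative fractions (over 0.05 from a whole number for both genes) in all 6 libraries, 21 in 5 and 8 in 4. Partners on the same scaffold lay 3.81 to 82.7 kb away, and 26 of the 39 were on the opposite strand. For 42 of the 83 members the partner was itself a member of another group or of the same one, and the median ratio of coding lengths was 1.15.

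Groups were linked in this way, in whole or in part. In 24 groups 2 members had their partners on 1 scaffold, which gives 18 links. The partners could lie far apart, as over 157114 to 250345 on scaffold 31, and the links between scaffolds 104 and 180 shared a pair of genes. In 6 of the 18 links the partners stood in reversed order on the reversed strand, so that the regions mirrored each other. In 3 they stood in the same order on the same strand. On scaffold 6, the group at 135433 to 139312 was mirrored by the group at 171804 to 176049. On scaffold 27, the group at 76418 to 82147 was mirrored by that at 121641 to 126572. On scaffold 86, members of the groups at 39716 to 53028 and 79988 to 85598 stood in the same order and orientation. Because linked members divide some of their reads, their counts are not independent measurements, and the levels of the separate genes are uncertain wherever such a link exists.

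As a set, members were more often higher than lower on L-rhamnose. Against cellobiose, 45 of the 192 members with enough reads to test were called (edgeR's quasi-likelihood test over all 12667 tested genes, Benjamini-Hochberg adjusted p under 0.05), 34 of them higher and 11 lower on L-rhamnose. That is 23.4% of the members tested, beside 22.0% of all genes tested. By direction it was 17.7% higher, beside 11.0% of all genes, and 5.73% lower, also beside 11.0%. The members' median log2 fold change was 0.41, against -0.00 over all genes. The count of called members was 3 without the first L-rhamnose library, 2 without the second, 19 without the first cellobiose library and 4 without the second, while all 45 kept their direction each time.

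Against xylose the tilt toward L-rhamnose had the same form. edgeR called 72 of 192 members (37.5%, beside 31.5% of all genes), 56 higher on L-rhamnose (29.2%, beside 15.9%) and 16 lower (8.33%, beside 15.6%). The median log2 fold change was 0.49 for members and 0.01 for all genes. Without the first or second L-rhamnose library, 15 and 22 members were called, again with every direction kept. Members called with all 6 libraries were likely to keep their direction, since each such fit reuses the remaining ones. Both L-rhamnose comparisons use the same L-rhamnose libraries. Xylose against cellobiose gave 6 called members (3.12%, beside 4.21% of all genes), 1 higher on xylose (0.521%, beside 1.66%) and 5 lower (2.60%, beside 2.55%), with a median log2 fold change of -0.01. That count was 3 without either L-rhamnose library, 17 without the second xylose library, 1 and 2 without the first and second cellobiose library, and 15 by DESeq2.

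The same lean was present in genes of uncertain count that had no such neighbour. On L-rhamnose against xylose, 20.8% of 457 such genes were called higher and 11.2% lower, while genes with whole counts throughout had 15.2% called higher and 16.1% lower. On L-rhamnose against cellobiose, the shares were 15.1% higher and 8.75% lower for the genes without a neighbour, and 10.6% and 11.3% for genes with whole counts. The difference between the classes was not tested.

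**Figure D2:**
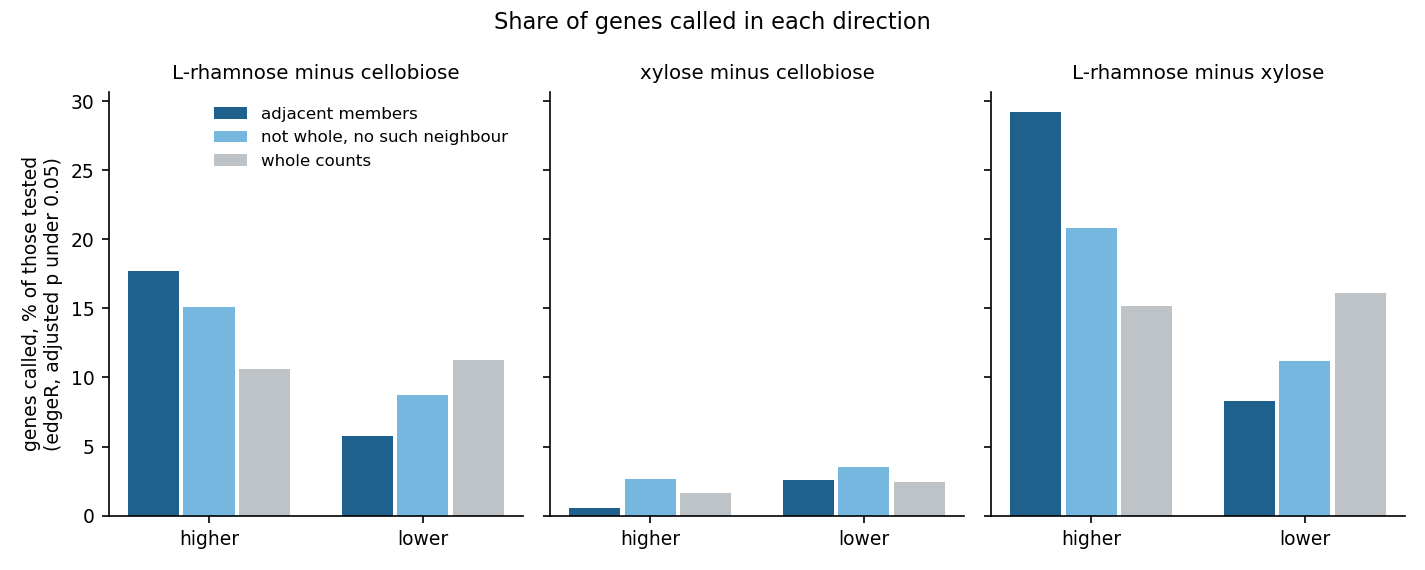
Bars give the share of tested genes called higher or lower (edgeR, adjusted p under 0.05, in percent) in each comparison, for the adjacent members (192 tested), for genes with fractional counts in each library but no such neighbour (457) and for genes with whole counts in all 6 libraries (11605). Members reach 29.2% higher on L-rhamnose than on xylose, against 15.2% of genes with whole counts.

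Neighbours responded differently to a sugar about as often as any adjacent genes. The difference between neighbours was tested with limma on log2(CPM + 1), where CPM is the expected count scaled to library size, over all 11043 testable adjacent pairs, and is given as the response of the earlier model minus that of the next one along the scaffold. Between L-rhamnose and cellobiose, 25 of 106 member pairs differed, 23.6% beside 22.1% of all adjacent pairs. Between xylose and cellobiose 6 differed, 5.66% beside 5.92%, and between L-rhamnose and xylose 33, 31.1% beside 30.9%. The median size of the difference was 0.51, 0.57 and 0.69 on the log2 scale in these comparisons, against 0.57, 0.40 and 0.68 in the other adjacent pairs. Leaving out the first or the second L-rhamnose library left 1 pair each of the 25, and 11 and 14 of the 33. Without the first and second cellobiose library, 10 and 4 of the pairs differed between L-rhamnose and cellobiose. For xylose against cellobiose the count was 1 without either L-rhamnose library or either cellobiose library and 15 without the second xylose library.

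Calls on the single genes were also counted per pair, with no test of the difference from other adjacent pairs. On L-rhamnose against xylose, both neighbours were called in the same direction in 11 pairs, all of them higher on L-rhamnose (10.4% of pairs, against 7.23% of other adjacent pairs). In 7 pairs the neighbours were called in opposite directions (6.60%, against 3.67%), in 43 only 1 was called and in 45 neither. Against cellobiose, 4 pairs had both members higher on L-rhamnose (3.77%, against 4.09% of other pairs called in the same direction), 2 had opposite calls (1.89%, against 1.82%) and 34 had 1 called member (32.1%, against 32.3%).

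**Figure D3:**
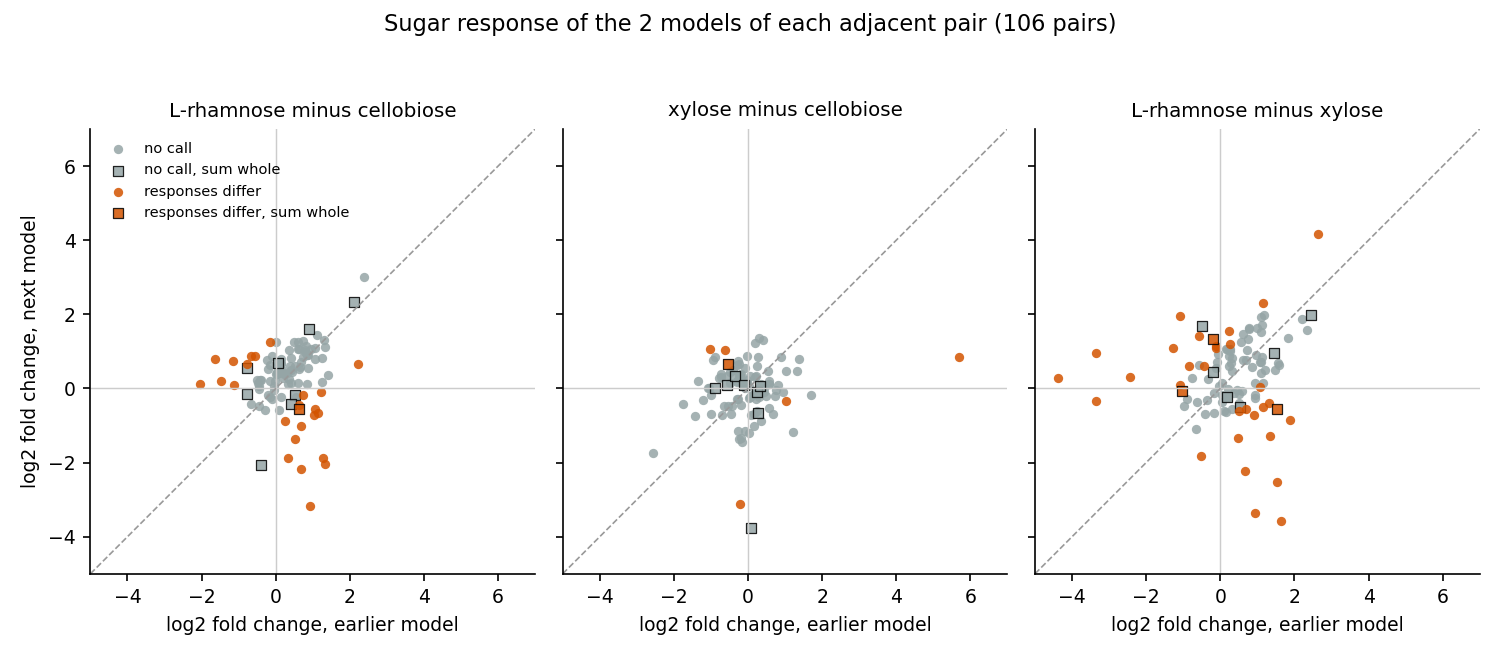
Each point is 1 of 106 adjacent member pairs, with the log2 fold change (edgeR) of the earlier model on the horizontal axis and of the next model on the vertical axis; orange marks pairs whose responses differed (limma, adjusted p under 0.05), squares mark the 9 pairs with whole sums, and the dashed line is equal response. Points far from the line include a pair at 5.70 and 0.85 for xylose minus cellobiose and a pair at 1.64 and -3.57 for L-rhamnose minus xylose.

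The 9 pairs that divide reads between the neighbours themselves are the clearest case of adjacent copies, and in most of them 1 copy held most of the reads. The lower copy received between 4.43% and 46.35% of the pair's counts over the 6 libraries. In these pairs a shared read given to 1 copy is taken from the other, so the levels of the separate copies are uncertain. The intervals and p-values of the copies and of their differences take the divided counts as observed and leave this uncertainty out. The most abundant was on scaffold 15, where the copies at 410179 to 411624 and 412428 to 413538 had coding lengths of 672 and 675 bases and 4 exons each. The later copy had 1870.4 and 1406 FPKM on L-rhamnose, 538 and 1007 on xylose and 585 and 479 on cellobiose. The earlier copy had 83.8 and 63.6 FPKM on L-rhamnose, 19.4 and 29.8 on xylose and 41.6 and 35.6 on cellobiose. Both were higher on L-rhamnose than on cellobiose, with no overlap between libraries, by 1.60 ± 0.33 and 0.91 ± 0.25 on the log2 scale (SE; edgeR adjusted p = 0.0184 and 0.0435). On xylose the copies parted: the later lay above and the earlier below its mean on cellobiose, a difference between the responses of the earlier and later copy of -1.13 (95% interval -1.70 to -0.55; limma adjusted p = 0.0397). Without either L-rhamnose or either cellobiose library none of these 3 calls held, and the last also failed without the second xylose library. The sum of fractions in this pair was informative in only 3 libraries.

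In a pair on scaffold 2 the fold changes on L-rhamnose had opposite signs, of which only the rise of the earlier copy passed the test. Its copies at 429192 to 431065 and 432054 to 433588 had 9 exons each and coding lengths of 936 and 924 bases. The earlier had 18.6 and 12.5 FPKM on L-rhamnose, 3.60 and 6.20 on xylose and 10.2 and 9.67 on cellobiose. The later had 34.8 and 26.4 FPKM on L-rhamnose, 38.5 and 43.5 on xylose and 40.6 and 47.1 on cellobiose. So the earlier copy was highest on L-rhamnose and the later lowest there, with no overlap between L-rhamnose and either other sugar for either copy. Singly, the earlier copy was called higher on L-rhamnose than on xylose (1.53 ± 0.33, edgeR adjusted p = 0.0155; 0.0983 without the first L-rhamnose library), while the later copy was not called (-0.57 ± 0.20, adjusted p = 0.0725), and neither was called against cellobiose. The responses differed by 1.92 between L-rhamnose and xylose (1.21 to 2.64; limma adjusted p = 0.00379), which held without each library in turn, and by 1.08 between L-rhamnose and cellobiose (0.37 to 1.80; adjusted p = 0.0411), which was lost without any 1 of the L-rhamnose or cellobiose libraries.

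On scaffold 5, the copies at 398987 to 400731 and 401798 to 403780 (8 exons each, 1365 and 1275 coding bases) differed in the same comparison. The earlier copy changed little, with 55.7 and 52.9 FPKM on L-rhamnose, 52.9 and 60.3 on xylose and 62.7 and 39.3 on cellobiose. The later copy had 12.3 and 9.65 FPKM on L-rhamnose, 3.45 and 4.38 on xylose and 7.95 and 5.43 on cellobiose, so that both L-rhamnose libraries lay above all others. The response of the earlier minus that of the later copy was -1.40 between L-rhamnose and xylose (-2.06 to -0.73; limma adjusted p = 0.00946), with adjusted p = 0.0817 at a value between -1.52 and -1.27 once the first L-rhamnose library was left out. Informative fractions were present in only 2 libraries here.

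A second pair on scaffold 2, at 325464 to 327159 and 328774 to 330471, had coding lengths of 1062 bases and 7 exons in both copies. The earlier copy had 130.2 and 88.1 FPKM on L-rhamnose, 128 and 277 on xylose and 139.9 and 229 on cellobiose; the later had 32.6 and 25.4 on L-rhamnose, 14.7 and 40.6 on xylose and 32.9 and 31.0 on cellobiose. The responses to L-rhamnose against xylose differed by -1.04 (-1.77 to -0.30; limma adjusted p = 0.0405), a call that was lost without either L-rhamnose library or the first xylose library, and neither copy was called on its own. The libraries of the earlier copy spread widely within each sugar, and the L-rhamnose and xylose values of both copies overlapped in FPKM.

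On scaffold 58, the copies at 158344 to 159990 and 160548 to 162387 gave the closest responses among the 9. The earlier had 127 and 99.7 FPKM on L-rhamnose, 8.95 and 28.7 on xylose and 32.8 and 18.7 on cellobiose; the later had 689.7 and 523 on L-rhamnose, 19.8 and 259 on xylose and 142 and 94.6 on cellobiose. Both copies were above all other libraries on L-rhamnose. The earlier copy was called higher on L-rhamnose than on cellobiose (2.11 ± 0.51, edgeR adjusted p = 0.0281) and than on xylose (2.45 ± 0.52, adjusted p = 0.0141); the later had similar fold changes of 2.33 ± 0.94 and 1.99 ± 0.93 that did not pass (adjusted p = 0.115 and 0.139). The difference between the copies was -0.23 against cellobiose (-1.52 to 1.06) and -0.31 against xylose (-1.60 to 0.98), intervals wide enough to hold a large difference. Both calls on the earlier copy were lost without either L-rhamnose library, and the one against cellobiose also without either cellobiose library.

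Among the remaining 4 pairs a single call was made, on scaffold 78, where the copy at 70273 to 71527 had 1.27 and 4.23 FPKM on L-rhamnose, 0.69 and 0.94 on xylose and 16.0 and 6.99 on cellobiose, with xylose below cellobiose by -3.75 ± 0.74 (edgeR adjusted p = 0.0402), a call kept only without the second xylose library. Its neighbour at 68624 to 69565 had 39.0 and 25.4 FPKM on L-rhamnose, 40.2 and 40.9 on xylose and 40.8 and 42.9 on cellobiose. The copies differed in the response to xylose against cellobiose by 2.30 (1.01 to 3.59), just short of the threshold (limma adjusted p = 0.0528). The pairs on scaffolds 16, 55 and 102 had no called member and no called difference. Between xylose and cellobiose, 1 of the 9 pairs had fold changes of the same sign in both copies, against 53.3% of other adjacent pairs. The same count was 3 of 9 between L-rhamnose and xylose, against 55.1%, and 5 of 9 between L-rhamnose and cellobiose, against 55.0%. Because copies that divide reads do not have independent fold changes, genes that share no reads are not a like baseline. The difference from other adjacent pairs was not tested.

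**Figure D4:**
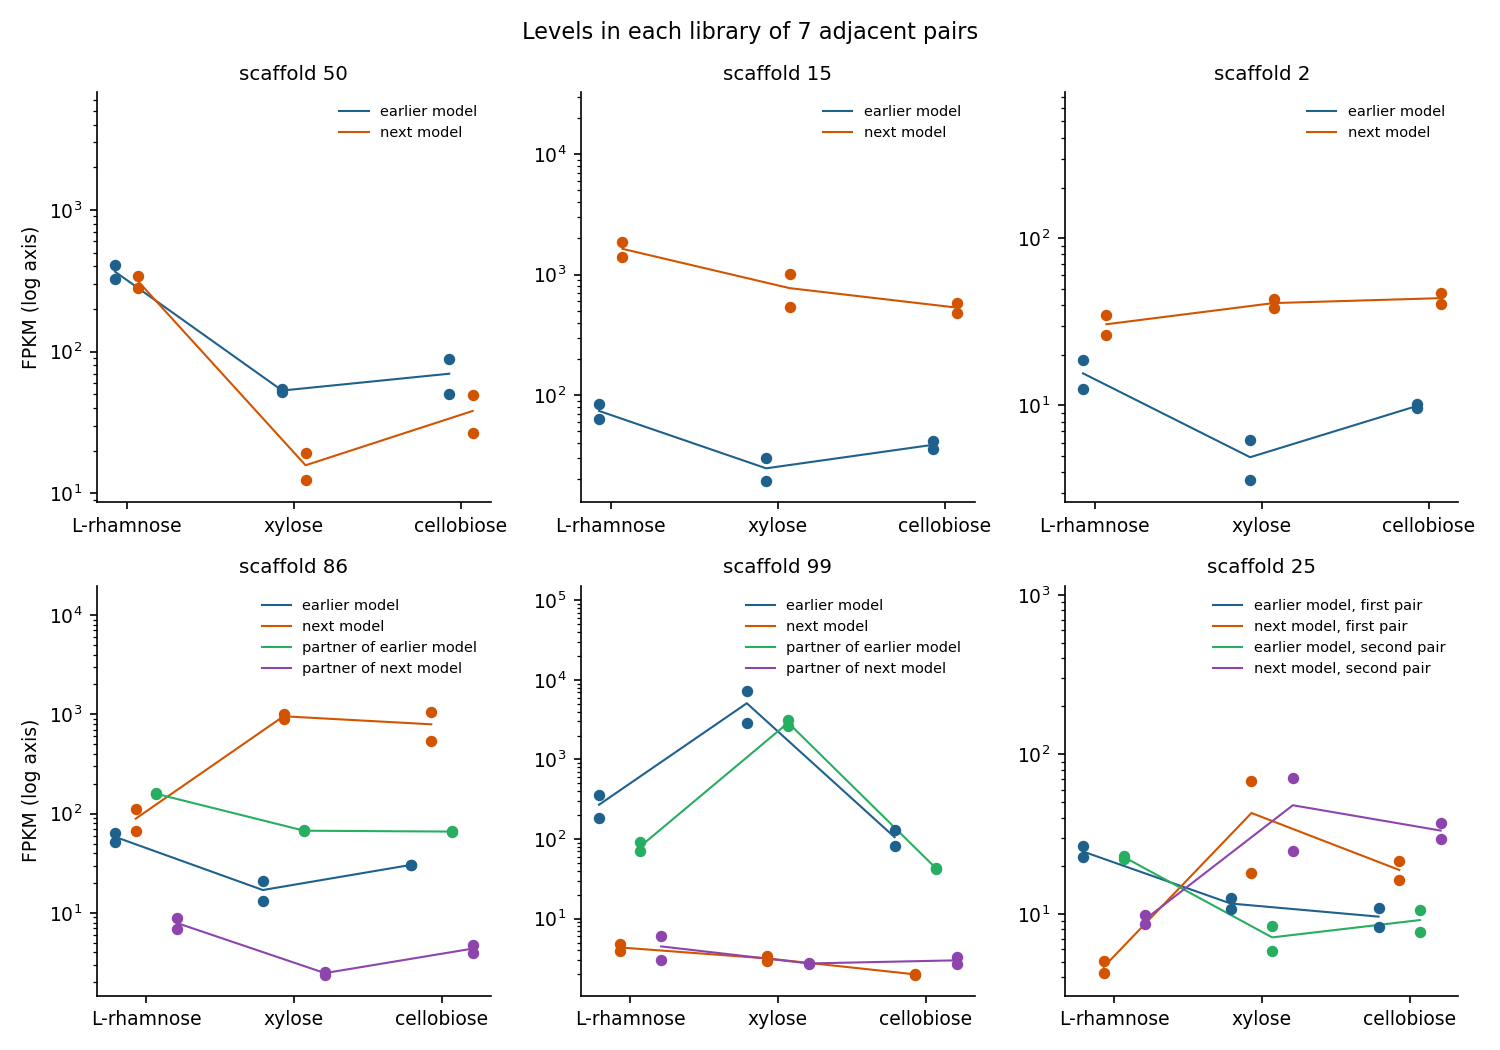
FPKM in each library (points, log axis) and the mean per sugar (lines, n = 2) for 7 adjacent pairs, with L-rhamnose, xylose and cellobiose from left to right. On scaffold 50 both models lie highest on L-rhamnose; on scaffolds 15 and 2 the neighbours share reads with each other; on scaffolds 86 and 99 the genes that share reads with each model elsewhere on the scaffold are drawn as partners; on scaffold 25 the earlier model of each pair is highest and the next model lowest on L-rhamnose.

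Among pairs resolved with another gene, the pair on scaffold 50 had the greatest rise of all members on L-rhamnose. gene_9858 (84587 to 86025) and gene_9860 (86326 to 87836) lie on the same strand with 3 exons and coding lengths of 834 and 837 bases, and their counts summed to whole numbers with those of a gene of 834 bases and 3 exons at 67273 to 68226 on the opposite strand. gene_9860 had 281 and 343 FPKM on L-rhamnose, 12.4 and 19.2 on xylose and 49.5 and 26.8 on cellobiose. gene_9858 had 326 and 408 FPKM on L-rhamnose, 54.4 and 51.98 on xylose and 89.2 and 50.6 on cellobiose. The additional gene had 278 and 437 FPKM on L-rhamnose, 113 and 74.6 on xylose and 163 and 125 on cellobiose, so all 3 were highest on L-rhamnose with no overlap. Against cellobiose the log2 fold changes were 3.01 ± 0.34 for gene_9860, 2.37 ± 0.29 for gene_9858 and 1.30 ± 0.31 for the additional gene (edgeR adjusted p = 0.00399, 0.00495 and 0.0287). Against xylose they were 4.17 ± 0.37, 2.64 ± 0.30 and 1.79 ± 0.32 (adjusted p = 0.00142, 0.00238 and 0.00878). Calls of gene_9860 held without each library; that of gene_9858 against cellobiose had adjusted p = 0.0523 without the second L-rhamnose library. The neighbours differed in size of response between L-rhamnose and xylose by -1.48 (-2.12 to -0.84; limma adjusted p = 0.00679), a call lost without either L-rhamnose library.

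Scaffold 25 held 3 groups whose members interlocked by their sums. The models at 203798 to 206051, 233842 to 236115 and 274600 to 276753, with coding lengths of 1725, 1746 and 1767 bases, summed to whole numbers together (informative fractions in 3 libraries), and they sat in 3 different groups. The second of them had 5.05 and 4.24 FPKM on L-rhamnose, 67.9 and 18.0 on xylose and 21.4 and 16.3 on cellobiose. The third had 9.86 and 8.61 FPKM on L-rhamnose, 71.2 and 24.8 on xylose and 29.6 and 37.0 on cellobiose. Both were lower on L-rhamnose without overlap, by -2.04 ± 0.59 and -1.87 ± 0.47 against cellobiose (edgeR adjusted p = 0.0476 and 0.0318) and by -3.36 ± 0.61 and -2.53 ± 0.48 against xylose (adjusted p = 0.00903 and 0.0101). The remaining model had 5.78 and 7.11 FPKM on L-rhamnose, 18.6 and 6.08 on xylose and 6.51 and 5.10 on cellobiose and was called in neither comparison. In all 3 models the first xylose library was far above the second.

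Directly before these falling models lay models that rose on L-rhamnose, and they formed 2 of the pairs called in opposite directions in both L-rhamnose comparisons. The model at 231270 to 233442 had 22.7 and 26.5 FPKM on L-rhamnose, 12.5 and 10.7 on xylose and 10.9 and 8.32 on cellobiose. The model at 272034 to 274202 had 23.2 and 22.1 FPKM on L-rhamnose, 5.89 and 8.35 on xylose and 10.6 and 7.69 on cellobiose. They were higher on L-rhamnose than on cellobiose by 1.34 ± 0.23 and 1.28 ± 0.25 (edgeR adjusted p = 0.0112 and 0.0159), and no set of genes with a whole sum was found for either. The neighbours differed by 3.21 (2.08 to 4.33) and 3.06 (1.74 to 4.38) between L-rhamnose and cellobiose (limma adjusted p = 0.00492 and 0.00969) and by 3.83 (2.70 to 4.95) and 3.75 (2.43 to 5.08) between L-rhamnose and xylose (adjusted p = 0.00165 and 0.00313). The differences against xylose held without each library. Without either L-rhamnose library the differences against cellobiose had adjusted p of 0.0562 to 0.0888, and the single calls of these 4 models against cellobiose were lost as well, and the second pair's difference failed also without the second cellobiose library (adjusted p = 0.0819). Against xylose, the single calls of these 4 models were lost without the first L-rhamnose library, all but that of the model at 272034 to 274202 without the second, and that of the model at 231270 to 233442 also without the second xylose library.

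On scaffold 86, the group with the highest summed counts held the member with the greatest fall on L-rhamnose against cellobiose. gene_16035 (82807 to 85598, minus strand, 18 exons, 1539 coding bases) had 111 and 67.3 FPKM on L-rhamnose, 1008 and 903 on xylose and 542 and 1044 on cellobiose. It was lower on L-rhamnose by -3.18 ± 0.40 against cellobiose and -3.57 ± 0.41 against xylose (edgeR adjusted p = 0.00517 and 0.00249), with no overlap. Its neighbour at 82034 to 82584 had 64.5 and 52.3 FPKM on L-rhamnose, 20.9 and 13.1 on xylose and 30.1 and 30.7 on cellobiose, which put L-rhamnose 1.64 ± 0.28 above xylose (edgeR adjusted p = 0.00804). The responses of these neighbours differed by 3.99 against cellobiose (3.13 to 4.86; limma adjusted p = 0.00116) and by 5.14 against xylose (4.27 to 6.002; adjusted p = 0.000275), the greatest differences of any member pair in the L-rhamnose comparisons, and both held without each library. The fall of gene_16035 against cellobiose had adjusted p = 0.0537 and 0.0608 without the first and second L-rhamnose library, and the rise of its neighbour against xylose 0.0631 without the first.

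Each of these neighbours shared reads with a gene earlier on the scaffold, in the same order and orientation. The partner of the neighbour, at 48142 to 49037, had 159.5 and 157 FPKM on L-rhamnose, 68.2 and 66.4 on xylose and 65.8 and 66.1 on cellobiose. It too was higher on L-rhamnose, by 1.24 ± 0.16 against cellobiose and 1.09 ± 0.16 against xylose (edgeR adjusted p = 0.00555 and 0.00495). The difference between these partners was 0.36 against cellobiose (-0.33 to 1.06) and -0.46 against xylose (-1.16 to 0.23), neither called. The partner of gene_16035, at 49652 to 53028, had 8.84 and 6.97 FPKM on L-rhamnose, 2.57 and 2.39 on xylose and 3.96 and 4.79 on cellobiose. It was highest on L-rhamnose, where gene_16035 was lowest, and the partners differed by 3.86 against cellobiose (3.05 to 4.67) and 4.88 against xylose (4.07 to 5.70; limma adjusted p = 0.00108 and 0.000258). Both of these differences held without each library, although the counts of these partners sum to whole numbers. The partner of gene_16035 held only 0.62% of their summed counts, so its level may depend on how the shared reads were divided.

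Xylose gave the greatest single change, on scaffold 99. gene_13415 (37192 to 38344, minus strand, 492 coding bases) had 354 and 187 FPKM on L-rhamnose, 2909 and 7263 on xylose and 81.5 and 129.8 on cellobiose. It was higher on xylose than on cellobiose by 5.70 ± 0.59 and lower on L-rhamnose than on xylose by -4.38 ± 0.55 (edgeR adjusted p = 0.00492 and 0.00333), with the xylose libraries above all others, and both calls held without each library. Its neighbour at 39479 to 40289 had 4.77 and 3.93 FPKM on L-rhamnose, 2.92 and 3.40 on xylose and 2.04 and 1.95 on cellobiose and was called in no comparison. The neighbours differed by 5.10 between xylose and cellobiose (3.98 to 6.22; limma adjusted p = 0.00119) and by -4.51 between L-rhamnose and xylose (-5.63 to -3.39; adjusted p = 0.000963).

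The partners of both lay in mirrored order at 20290 to 23314 on the same scaffold, by their count sums alone. The models were not equal: gene_13415 had 8 exons and its partner 10. The neighbour had 627 coding bases in 5 exons and its partner 753 in 6. The partner of gene_13415, at 21817 to 23314 with 495 coding bases, had 91.9 and 70.1 FPKM on L-rhamnose, 2646 and 3143 on xylose and 42.4 and 43.5 on cellobiose. Its log2 fold change was 6.19 ± 0.26 for xylose minus cellobiose and -5.30 ± 0.25 for L-rhamnose minus xylose (edgeR adjusted p = 0.000293 and 0.000637). Partner and member differed by 0.55 between xylose and cellobiose (-0.37 to 1.47; limma adjusted p = 0.471) and by -0.98 between L-rhamnose and xylose (-1.90 to -0.06; adjusted p = 0.096). The partner of the neighbour, at 20290 to 21562, had 5.97 and 2.99 FPKM on L-rhamnose, 2.72 and 2.75 on xylose and 2.67 and 3.32 on cellobiose. In both regions the gene with high levels on xylose thus lay near one below 6 FPKM in every library. In the mirrored region these genes were not directly adjacent models, so the partners are not members.

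A linked group whose responses were close to those of its partners lay on scaffold 97. At the start of this scaffold, the model at 1 to 1101 had 326 and 316 FPKM on L-rhamnose, 64.4 and 61.3 on xylose and 61.9 and 72.8 on cellobiose, and its partner on scaffold 105, at 101504 to 102715, had 220.0 and 206 on L-rhamnose, 34.0 and 44.5 on xylose and 49.6 and 41.0 on cellobiose. Both were above all other libraries on L-rhamnose: the fold change against cellobiose was 2.23 ± 0.18 for the member and 2.21 ± 0.21 for the partner (edgeR adjusted p = 0.00151 and 0.00241), and they differed by 0.04 (-0.61 to 0.69). The next model on scaffold 97, at 1268 to 2237, had 43.0 and 34.0 FPKM on L-rhamnose, 6.04 and 13.0 on xylose and 21.1 and 26.6 on cellobiose. It was called against xylose (1.86 ± 0.37, adjusted p = 0.0115, though 0.0783 at most without an L-rhamnose library), and its partner at 100404 to 101337 on scaffold 105 likewise (1.59 ± 0.30, adjusted p = 0.0101). Calls of the model at 1 to 1101 held without each library.

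Scaffold 7 held 1 of the 3 pairs of partners called in opposite directions between L-rhamnose and xylose, beside that of gene_16035 and another on scaffold 86. The neighbours on scaffold 7 at 473901 to 475410 and 475470 to 475718 both rose on L-rhamnose, while their partners on the same scaffold were not called higher on it. The first had 56.0 and 61.1 FPKM on L-rhamnose, 25.2 and 22.8 on xylose and 23.6 and 23.2 on cellobiose; the second had 129.7 and 121 on L-rhamnose, 29.0 and 16.6 on xylose and 59.7 and 39.9 on cellobiose. Against cellobiose they were higher by 1.31 ± 0.18 and 1.30 ± 0.32, and against xylose by 1.14 ± 0.18 and 2.31 ± 0.34 (edgeR adjusted p = 0.00634, 0.0298, 0.00564 and 0.00508). The partner of the second, at 465217 to 467678, had 1650 coding bases against 249. The second model held only 5.07% of their summed counts, so its level may depend on how shared reads were divided. That partner had 165 and 178 FPKM on L-rhamnose, 180 and 186 on xylose and 126 and 125 on cellobiose. On L-rhamnose it lay above cellobiose without overlap but was not called (0.43 ± 0.17, edgeR adjusted p = 0.108). The partner of the first, of the same coding length at 480935 to 482616, had 15.8 and 18.0 FPKM on L-rhamnose, 25.8 and 25.2 on xylose and 24.4 and 25.3 on cellobiose, called lower on L-rhamnose than on xylose (-0.74 ± 0.18, edgeR adjusted p = 0.0247). Member and partner differed by 1.84 in both L-rhamnose comparisons (1.29 to 2.38 against each; limma adjusted p = 0.00267 against cellobiose and 0.00172 against xylose), which held without each library. The calls of the neighbours against xylose held without each library, and those against cellobiose were lost without either L-rhamnose library and without the second cellobiose library, the second model's also without the first.

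Over all 61 testable pairs of a member with a partner elsewhere, 11 differed in response between L-rhamnose and cellobiose, 18.0% beside 22.0% of the adjacent and partner pairs tested together. Between xylose and cellobiose 3 differed (4.92%, beside 5.91%), and between L-rhamnose and xylose 16 (26.2%, beside 30.9%). On single genes, both partners were called in the same direction in 12 of 61 pairs between L-rhamnose and xylose (19.7%) and in opposite directions in 3 (4.92%), beside 7.23% and 3.67% of the adjacent pairs that are not member pairs. The same counts between L-rhamnose and cellobiose were 8 (13.1%, beside 4.09%) and 0 (beside 1.82%). These differences between kinds of pair were not tested. The limma count against cellobiose was 2 without either L-rhamnose library and 3 without either cellobiose library, that against xylose 5 and 4 without the first and second L-rhamnose library, and that of xylose against cellobiose ran from 0 to 6.

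Further pairs were called in opposite directions between L-rhamnose and xylose. At the start of scaffold 60, in the group at 59 to 6221, the models at 859 to 1491 and 5130 to 6221 were higher on L-rhamnose (1.33 ± 0.36 and 1.09 ± 0.23; edgeR adjusted p = 0.0305 and 0.0133) and the one between them, at 4307 to 5324, lower (-1.29 ± 0.28; adjusted p = 0.0156). The models at 4307 to 5324 and 5130 to 6221 lie on the same strand and overlap in their gene spans but not in their coding spans. On the same scaffold as gene_16035, the model at 131769 to 132906 had 1.84 and 1.50 FPKM on L-rhamnose, 21.0 and 11.0 on xylose and 3.87 and 6.86 on cellobiose. Its neighbour at 133992 to 134943 had 48.5 and 38.8 FPKM on L-rhamnose, 21.1 and 19.1 on xylose and 28.8 and 20.9 on cellobiose, and the responses differed by -3.44 (-4.45 to -2.43; limma adjusted p = 0.00163). The earlier of these models shared reads with a gene of the same coding length on scaffold 196, at 21309 to 22362. The earlier model held 0.66% of the summed counts of both genes, and how many of these reads were shared is not known. That partner had 463 and 383 FPKM on L-rhamnose, 1571 and 1486 on xylose and 1189 and 1851 on cellobiose, and was also lower on L-rhamnose than on xylose (-2.00 ± 0.27, edgeR adjusted p = 0.00407). The partner of the neighbour, on scaffold 233 at 21804 to 23072, had 90.7 and 80.4 FPKM on L-rhamnose, 256 and 159 on xylose and 201 and 134 on cellobiose, lower on L-rhamnose than on xylose (-1.43 ± 0.29, adjusted p = 0.0135) where the neighbour was higher. On scaffold 206, the model at 13157 to 13748 was higher on L-rhamnose by 1.88 ± 0.25 and the next, at 15101 to 15942, lower by -0.85 ± 0.23 (edgeR adjusted p = 0.00405 and 0.03), and the responses differed by 2.55 (1.82 to 3.28; limma adjusted p = 0.00146). The 2 differences between neighbours held without each library; of the single calls of members in these groups, only that of the model at 13157 to 13748 did, and the others failed without either L-rhamnose library (adjusted p of at most 0.157), the model at 859 to 1491 also without either xylose library and that at 15101 to 15942 also without the first.

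Low levels on xylose or on L-rhamnose were seen in a few further members. gene_19061 on scaffold 270 (6860 to 9168) had 4.98 and 7.07 FPKM on L-rhamnose, 1.27 and 3.41 on xylose and 21.1 and 22.9 on cellobiose. It was lower on xylose than on cellobiose by -3.13 ± 0.43 (edgeR adjusted p = 0.0117), with adjusted p = 0.0625 and 0.0555 without the first and second cellobiose library. Its neighbour at 3933 to 5479 was not called, and the responses of the neighbours differed by 2.73 (1.59 to 3.87; limma adjusted p = 0.0193), a call lost without either L-rhamnose library or either cellobiose library. gene_18602, in the group of 5 on scaffold 249 (8885 to 11706), had 7.39 and 8.73 FPKM on L-rhamnose, 2.88 and 2.39 on xylose and 7.93 and 6.50 on cellobiose, and was lower on xylose by -1.34 ± 0.25 (adjusted p = 0.0328). That call was lost in 5 of the 6 fits without 1 library, all but the one without the first xylose library. In the same group the last model, at 14915 to 17436, ran the other way between L-rhamnose and xylose, with 5.31 and 4.99 FPKM on L-rhamnose, 10.8 and 12.6 on xylose and 10.6 and 9.98 on cellobiose (-1.33 ± 0.20; adjusted p = 0.0051), and held without each library. On scaffold 9, gene_3766 (3761 to 5842) had 1.99 and 1.53 FPKM on L-rhamnose, 10.02 and 4.69 on xylose and 6.82 and 8.60 on cellobiose, a fall of -2.17 ± 0.43 against cellobiose (adjusted p = 0.0171) that was lost without either L-rhamnose library or the second cellobiose library (adjusted p = 0.101, 0.112 and 0.0913). Its neighbour at 954 to 2008 had 28.2 and 24.1 FPKM on L-rhamnose, 15.8 and 14.2 on xylose and 15.7 and 16.0 on cellobiose, and the neighbours differed by 2.49 (1.66 to 3.31; limma adjusted p = 0.00392), with adjusted p = 0.053 and 0.0508 without the first and second L-rhamnose library. gene_3766 shared reads with a gene on scaffold 87, at 129157 to 132098, of nearly the same coding length (1692 and 1680 bases). That partner had 13.5 and 11.8 FPKM on L-rhamnose, 5.86 and 10.1 on xylose and 10.8 and 9.72 on cellobiose and was not called (0.29 ± 0.28 against cellobiose). The level of gene_3766 depends on how the shared reads were divided. Member and partner differed by -2.10 against cellobiose (-3.31 to -0.89; limma adjusted p = 0.0263), a call lost without any 1 of the L-rhamnose or cellobiose libraries.

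Adding up the counts of each group gave a measure that does not depend on how reads were split between neighbours, though it still depends on the split with genes elsewhere. Of 86 groups, 21 were called between L-rhamnose and cellobiose (24.4%, beside 22.1% of all rows tested). By direction, 18 were higher on L-rhamnose (20.9%, beside 11.0% of all rows) and 3 lower (3.49%, beside 11.1%). Between xylose and cellobiose 4 were called (4.65%, beside 4.29%): 1 was higher on xylose, where 1.70% of all rows were, and 3 were lower, where 2.60% were. Between L-rhamnose and xylose 33 were called (38.4%, beside 31.4%), 26 higher on L-rhamnose (30.2%, beside 15.8%) and 7 lower (8.14%, beside 15.6%). In 19 groups a member was called against cellobiose while the sum was not, and in 20 groups against xylose. The sum was called with no member called in 1 group in each comparison with cellobiose and in 2 between L-rhamnose and xylose. Of these, the group on scaffold 142, at 47154 to 51808, had a sum higher on L-rhamnose than on cellobiose by 0.57 ± 0.16 (edgeR adjusted p = 0.0423), from members at 0.51 ± 0.19 and 0.59 ± 0.18. On scaffold 179, the sum of the overlapping models at 811 to 2711 was lower on xylose than on cellobiose by -0.77 ± 0.16 (adjusted p = 0.0481), a call lost without any 1 of the 6 libraries. Between L-rhamnose and xylose, the sums at 255007 to 256847 on scaffold 25 and 3933 to 9168 on scaffold 270 were higher on L-rhamnose by 1.52 ± 0.46 and 0.97 ± 0.27 (edgeR adjusted p = 0.0416 and 0.0354); the first was lost without either L-rhamnose library, the second xylose or the second cellobiose library, and the second was kept only without the second xylose library. Without either L-rhamnose library 2 groups were called against cellobiose, 7 and 3 without the first and second cellobiose library, and the sum on scaffold 142 lost its call in those fits. Against xylose 6 and 12 groups were called without the first and second L-rhamnose library, and between xylose and cellobiose 2 without either cellobiose library.

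Large groups were mixed. In the group of 5 on scaffold 249, with levels of 2.39 to 12.8 FPKM over all libraries, 1 member rose and 1 fell on L-rhamnose against xylose and 3 were not called, and no set of genes with a whole sum was found for any of the 5. In the group of 4 on scaffold 53, at 135169 to 144896, the last model was higher on L-rhamnose than on cellobiose (1.45 ± 0.33, edgeR adjusted p = 0.0244) and than on xylose (1.63 ± 0.33, adjusted p = 0.0129), with 15.4 and 12.8 FPKM on L-rhamnose, 3.18 and 5.06 on xylose and 6.43 and 3.71 on cellobiose; both calls were lost without either L-rhamnose library and the first also without the second cellobiose library. Its other members were called in neither comparison. In the group of 4 on scaffold 25, at 195535 to 207173, the second model was lower on L-rhamnose than on xylose (-0.65 ± 0.20, adjusted p = 0.0449) and the last higher (1.97 ± 0.50, adjusted p = 0.0249), at 0.55 to 3.11 FPKM for the last; the first of these calls held only without the second xylose library and the other was lost without any 1 library. By contrast, the abundant model at 114927 to 116361 on scaffold 63 had 456 and 435 FPKM on L-rhamnose, 538 and 559 on xylose and 458 and 518 on cellobiose and was called in none of the 3 comparisons. Of all 195 members, 3 had too few reads to be tested.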

How the data were processed

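The 6 wild-type libraries (2 per sugar) were made for RNA-seq. Per the submitters' processing notes, Bowtie2, HISAT and RSEM were used; the sources used here give neither their roles and versions nor a genome build. The authors deposited 1 table per library with the expected count, FPKM and length of each gene, per the file headers. Gene positions come from the deposited JGI gene catalogue of this strain, in its own scaffold coordinates.

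The expected counts were rounded to whole numbers and tested with edgeR 4.0.16 (filterByExpr, TMM, quasi-likelihood F-test, all 6 libraries in 1 fit with 3 residual degrees of freedom, Benjamini-Hochberg adjusted p under 0.05). Neighbour differences were fitted with limma 3.58.1 on log2(CPM + 1), which understates changes of low genes. FPKM is per length and is used to describe levels. No sequence was used. Members and lists were chosen with earlier results of these data known; the 2-gene and 3-gene sums with genes elsewhere, the links between regions and the partner tests were chosen after seeing the data. Of the sums with a gene elsewhere, those were kept where the fraction exceeded 0.05 in at least 3 libraries. Identifiers were printed for the 2 called members with the greatest change in each direction per comparison (at least 10 CPM on the higher sugar, no overlap); pairs and groups were picked by size of difference, opposite calls, shared direction, member number and summed counts, and the 9 whole-sum pairs, their partners and the linked groups were added after their values were seen. DESeq2 1.42.0, other scalings, filters, pseudocounts and leaving out each library served as alternatives. The fits were run on simulated whole counts with known changes. No read was shared between genes in that simulation, so it cannot show how the tests behave on divided reads. Replicates differed by more than counting noise, so none were merged.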

Additional observations from a re-analysis of the deposited data

How the results depend on the processing

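The numbers of called members, groups and pairs moved strongly with single libraries. Every called member, group sum and pair kept its direction without each library. That was likely in advance, since they were chosen as called with all 6 libraries and each refit reuses the remaining ones. Leaving out 1 library gave 2 to 64 called members between L-rhamnose and cellobiose, 1 to 17 between xylose and cellobiose and 15 to 73 between L-rhamnose and xylose. Called group sums ranged over 2 to 30, 2 to 6 and 6 to 35 in the same order, neighbour pairs over 1 to 32, 1 to 15 and 11 to 33, and partner pairs over 2 to 15, 0 to 6 and 4 to 16. Fits without 1 library leave 2 residual degrees of freedom and assume that a lone library varies like the other sugars. The share of all genes, rows or pairs called in the same fits is not given here. These ranges can therefore not be called particular to the members.

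With only the 2 sugars of a comparison in the fit, 68 members were called between L-rhamnose and cellobiose, 3 members, 1 neighbour pair and 0 partner pairs (limma; 12 at an unadjusted p under 0.05) between xylose and cellobiose. DESeq2 called 15 members between xylose and cellobiose. With the replicate number as a block, 25 members, 11 group sums and 6 partner pairs were called between L-rhamnose and cellobiose and 2 neighbour pairs between xylose and cellobiose. The numbers do not pair the samples: deviations of same-numbered libraries correlated at -0.101 between L-rhamnose and xylose, -0.227 between L-rhamnose and cellobiose and -0.14 between xylose and cellobiose over 12667 genes. With 3 sugars no crossing of the numbers makes all 3 correlations positive, so no crossed pairing was fitted. Requiring a count to be more than 0.02 from a whole number left 116 members; ordering models within a strand gave 203. Other scalings, filters, pseudocounts, unrounded counts and variance settings moved no count by more than 1.5 times. Of 324 refits of the 27 named gene and pair results, 40 lost the call, 33 of them without 1 library, and none reversed. The cause of these changes was not tested. With 2 libraries a sugar, a missed call does not show that a gene kept its level.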
